A study of Homo sapiens with 12 samples.

Results

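Of the 41000 gene probes on the arrays of this study, 14 carry the name of 1 of 10 genes that build triglyceride, package it in lipid droplets or break it down: GPAM, AGPAT2, LPIN1, LPIN2, DGAT1, DGAT2, PNPLA2, PNPLA3, MGLL and CIDEC. A probe was taken when it was not a control and the scanner output gave it 1 of these names, so no measured value entered the choice. The RNA came from HuH-7, a hepatocellular carcinoma cell line that carries the Y220C mutant of p53 in all groups. Cells received the solvent DMSO alone, 28 µM SLMP53-2 or 42 µM SLMP53-2 for 24 h, at 2 and 3 times the IC50. SLMP53-2 is a small molecule studied for its action on mutant p53. Each group had 4 arrays from 4 biological replicates, 12 in all, spread over 5 slides, and part of the labels give the higher dose as 48 µM. All groups come from a single cell line, and in RNA of whole cultures fewer cells with a transcript and less of it per cell cannot be told apart.

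A liver cell joins fatty acids to glycerol 3-phosphate in steps. Glycerol-3-phosphate acyltransferases such as GPAM add the first acyl chain, AGPAT enzymes add the next to give phosphatidate, lipins remove its phosphate to give diacylglycerol, and DGAT1 or DGAT2 adds the last chain to give triglyceride. The product is stored in lipid droplets, whose growth by fusion CIDEC promotes, or leaves the cell in lipoproteins. Droplet triglyceride is broken down by lipases, of which PNPLA2 (adipose triglyceride lipase) cuts the first chain and MGLL (monoglyceride lipase) the last, while PNPLA3 sits on the droplet and is known for its link to fatty liver. Several of these genes are textbook targets of sterol regulatory element-binding proteins, the transcription factors of lipid synthesis.

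Markers of several cell types were read on the arrays. All 10 hepatocyte markers were detected and ALB, the albumin gene, read 16.14 on the log2 scale in DMSO. The adipocyte markers LEP, FABP4 and PLIN1 were well above background on no DMSO array, nor was PTPRC, the pan-leukocyte gene. ADIPOQ, the other adipocyte marker, was above it on all arrays, at 6.39 in DMSO. At least 1 probe each of COL1A1, COL1A2, COL3A1, CD68, CD3E, PECAM1 and VWF was above it in DMSO, with 1 COL1A2 probe at 10.13. DES, a further stellate cell marker, and 1 probe each of COL3A1 and VWF were above it on no DMSO array. The probes of HNF4A, a hepatocyte marker, read 6.20 to 6.74 in DMSO, level with ADIPOQ. The detection flag alone thus does not separate the cell types. No probe of any of these lists was called at 42 µM. The values of 28 µM replicate 4 correlated more closely with DMSO replicate 3 on the same slide (r = 0.9947 over tested probes) than those of any other pair of arrays. Within its own group 28 µM replicate 1 had the lower correlations with replicates 2 and 3 (0.9763 and 0.9709, against 0.977 and 0.9866 for replicate 4), and limma gave it the lowest array weight of the 12 (0.312, against 0.681 for replicate 4). Values at 28 µM without replicate 4 stand beside the results below. Replicate 4 was singled out for its likeness to DMSO, so leaving it out favours larger differences from DMSO and a smaller spread. The adjusted p-values without it are therefore a description and no independent test.

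The promoters of the members were read from RefSeq (build GRCh38.p14), and windows of 6 of the 10 genes were used. DGAT1, DGAT2, PNPLA3 and MGLL were not searched, so nothing is known here of their motifs. The 250 bases before the start sites of LPIN1 and GPAM are shown for their place among the most increased probes below. Those of PNPLA2 and 1 start site of CIDEC are shown for the only matches to the sterol regulatory element in the windows searched. All run 5′ to 3′, each on its gene's strand. Capitals mark the letters TCACNCCAC on either strand.
LPIN1 start site 1 (chr2:11677294-11677543, plus strand): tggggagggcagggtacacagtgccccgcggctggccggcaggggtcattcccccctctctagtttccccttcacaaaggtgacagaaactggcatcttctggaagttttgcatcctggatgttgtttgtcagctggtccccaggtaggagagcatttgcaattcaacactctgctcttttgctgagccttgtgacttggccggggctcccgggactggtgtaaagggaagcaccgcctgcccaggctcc
LPIN1 start site 2 (chr2:11724065-11724314, plus strand): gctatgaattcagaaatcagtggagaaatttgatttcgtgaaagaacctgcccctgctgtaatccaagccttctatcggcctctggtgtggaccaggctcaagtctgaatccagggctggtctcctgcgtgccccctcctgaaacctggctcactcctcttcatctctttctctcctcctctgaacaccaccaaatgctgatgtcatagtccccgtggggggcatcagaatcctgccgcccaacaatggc
LPIN1 start site 3 (chr2:11746382-11746631, plus strand): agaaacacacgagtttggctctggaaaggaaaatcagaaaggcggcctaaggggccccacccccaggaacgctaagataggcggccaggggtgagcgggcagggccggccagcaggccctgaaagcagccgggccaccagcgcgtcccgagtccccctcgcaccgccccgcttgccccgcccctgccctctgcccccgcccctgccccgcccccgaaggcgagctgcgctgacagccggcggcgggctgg
GPAM (chr10:112183766-112184015, minus strand): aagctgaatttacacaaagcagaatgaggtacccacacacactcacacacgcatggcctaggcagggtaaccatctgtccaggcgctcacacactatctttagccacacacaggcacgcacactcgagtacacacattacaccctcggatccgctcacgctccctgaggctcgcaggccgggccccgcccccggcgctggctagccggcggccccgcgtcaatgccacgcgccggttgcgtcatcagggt
PNPLA2 (chr11:818664-818913, plus strand): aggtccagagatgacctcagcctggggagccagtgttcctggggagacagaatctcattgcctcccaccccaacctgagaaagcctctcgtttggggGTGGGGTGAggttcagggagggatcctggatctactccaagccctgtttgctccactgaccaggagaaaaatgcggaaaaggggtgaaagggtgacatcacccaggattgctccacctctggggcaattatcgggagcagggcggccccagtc
CIDEC start site 2 (chr3:9878813-9879062, minus strand): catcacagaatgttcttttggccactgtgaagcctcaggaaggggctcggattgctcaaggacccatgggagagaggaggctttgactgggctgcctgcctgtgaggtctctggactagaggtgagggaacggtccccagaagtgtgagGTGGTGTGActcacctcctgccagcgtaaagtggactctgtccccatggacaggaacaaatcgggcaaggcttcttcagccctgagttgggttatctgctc

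In windows of 300 bases, 250 before and 50 after the start site, the 6 motifs searched on both strands were the sterol regulatory element TCACNCCAC, the E-box CACGTG, the X-box core GCCACGT, which can overlap the E-box, the CCAAT box CCAAT, the C/EBP-ATF element TGATGNAA and direct repeat 1, a pair of half-sites bound by nuclear receptors. Among all 35116 windows these letters were present in 1.13%, 7.26%, 3.22%, 34.6%, 3.62% and 0.0228%, respectively. PNPLA2 held the sterol regulatory element at -153 to -145 and CIDEC start site 2 at -101 to -93, both on the minus strand. None of the 6 motifs was found in the windows of the 3 LPIN1 start sites, and GPAM held only a CCAAT box at 17 to 21. LPIN2 start site 1 held an E-box at -210 to -205 and an overlapping X-box core. A match is a run of letters and says nothing of binding in these cells.

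Values below are normalized log2 intensities, in which a difference of 1 is a doubling of brightness. A gene was called when limma gave 1 of its probes a Benjamini-Hochberg adjusted p under 0.05 (over all 33476 probes tested) together with a log2 difference of 0.6 or more from DMSO. At 42 µM, LPIN1 rose on both of its probes and MGLL fell, so that 2 of the 10 genes were called, against 3.33% of all genes tested in this comparison. By direction, 1.74% of all genes were higher and 1.59% lower. Of all called probes 53.3% were higher, or 39.3% when the arrays were scaled to their 75th percentile in place of quantile normalization. At 28 µM limma called 0 members and 0% of all genes, with a smallest adjusted p of 0.117 among all probes. At an unadjusted p below 0.05 with the same fold change limit, 3 member probes and 2.37% of all probes passed at 28 µM. The 3 probes were those of LPIN1 (brighter), PNPLA3 and GPAM. Between the doses 0 members and 0% of all genes were called, with 0 members and 0.281% of all probes at the unadjusted limit. Of the 14 probes 13 were tested, and the one left out, the dimmer of the GPAM probes, was well above background on 1 array of 12. Their median log2 change was 0.10 at 42 µM and 0.23 at 28 µM, against -0.01 for all probes tested at each dose.

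**Figure D1:**
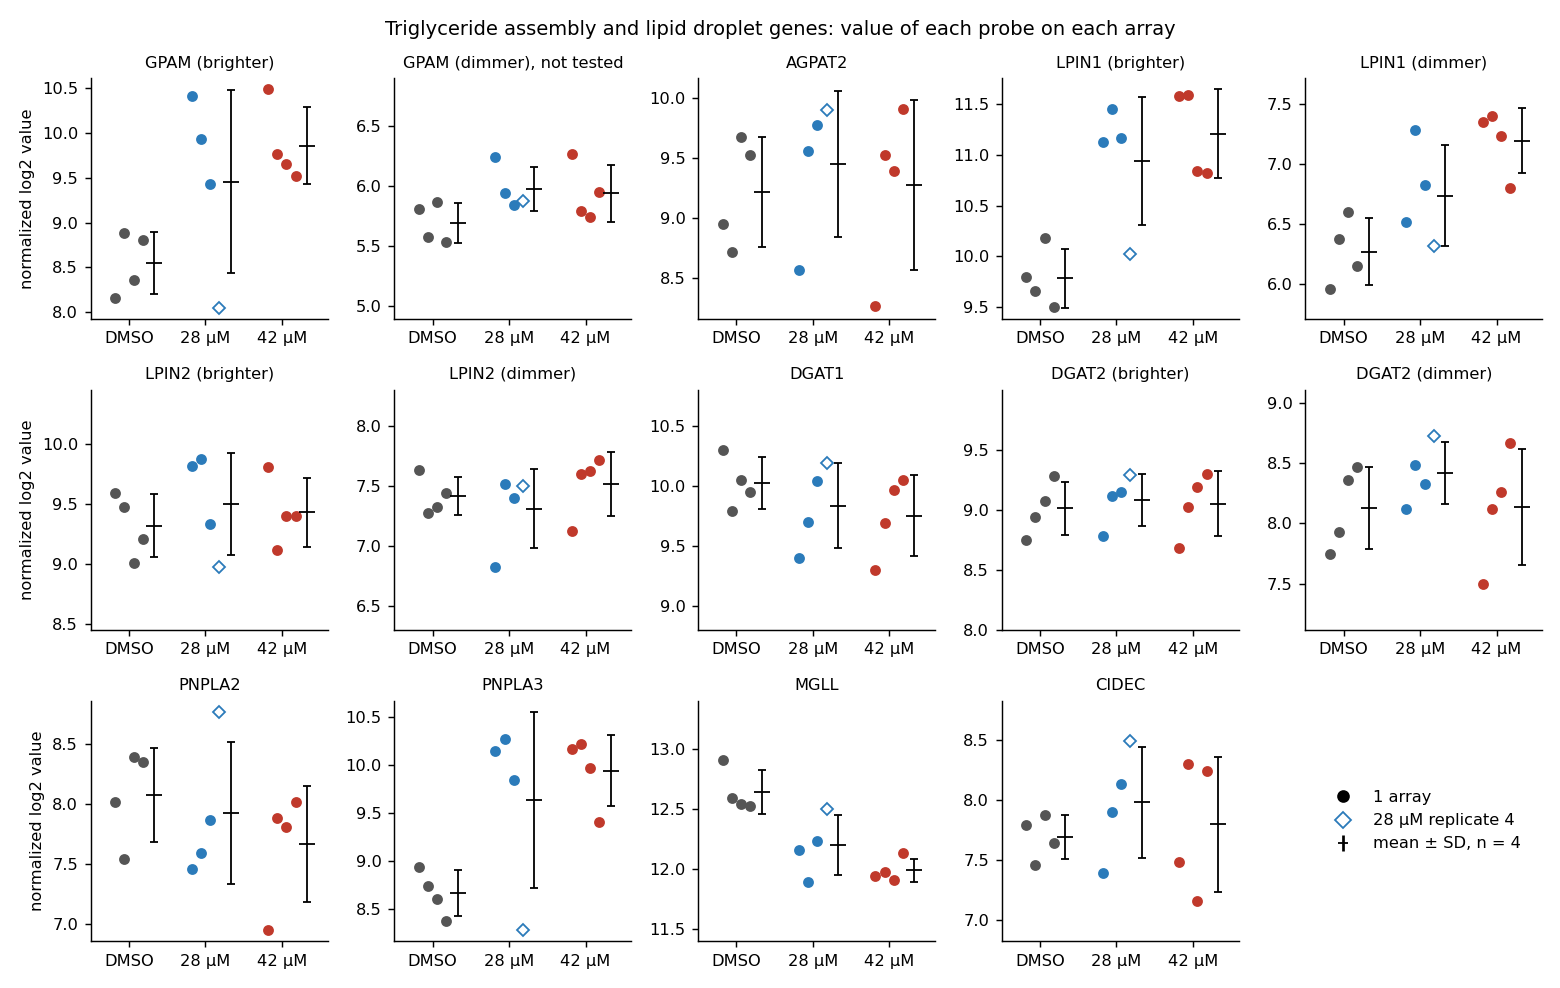
Normalized log2 value (vertical axis) of each of the 14 member probes on each array, by group (horizontal axis), with points for single arrays, an open diamond for 28 µM replicate 4, and a dash with bars for the mean ± SD of 4 arrays. LPIN1, PNPLA3 and the brighter GPAM probe lie higher on every 42 µM array than on any DMSO array, MGLL lies lower, and 28 µM replicate 4 falls within the DMSO range for LPIN1 and below it for PNPLA3 and the brighter GPAM probe.

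LPIN1 encodes lipin 1, the phosphatidate phosphatase that makes diacylglycerol and that also acts in the nucleus as a coregulator of lipid genes. Its brighter probe (A_32_P52609, hg19 chr2:11967107-11967166, plus strand) read 9.80, 9.66, 10.18 and 9.50 on DMSO replicates 1 to 4. At 28 µM it read 11.13, 11.45, 11.16 and 10.02, and at 42 µM 11.58, 11.59, 10.84 and 10.82. Every 42 µM array was above every DMSO array, and at 28 µM all but replicate 4 were. The 42 µM arrays were higher by 1.43 (SE 0.29, n = 4 arrays per group, 2.69-fold, adjusted p = 0.0208 from limma). At 28 µM it was 1.16 (SE 0.29, 2.23-fold, adjusted p = 0.194), and without replicate 4 it was 1.47 (adjusted p = 0.00576). The doses themselves differed by 0.27, with a 95% interval of -0.35 to 0.89. Among all probes tested, ordered by their change, this probe stood at percentile 99.8 at each dose.

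The other LPIN1 probe (A_23_P320371, hg19 chr2:11924054-11924113) lies upstream of the first in the same gene and is close to background, being well above it on 3 of 4 DMSO arrays. It read 5.96, 6.38, 6.60 and 6.15 on DMSO, 6.52, 7.29, 6.83 and 6.32 at 28 µM, and 7.35, 7.40, 7.24 and 6.80 at 42 µM. Again the 42 µM arrays did not overlap with DMSO, while the 28 µM arrays did. The 42 µM arrays were higher by 0.92 (SE 0.21, adjusted p = 0.0338 from limma). The 28 µM arrays differed by 0.47 (adjusted p = 0.444), or by 0.61 without replicate 4 (adjusted p = 0.180). With Agilent's processed signal in place of the Edwards correction the change at 42 µM was 1.67 to 1.75. Over the 12 arrays the LPIN1 probes had a Pearson r of 0.878 with each other.

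MGLL, the enzyme that releases the last fatty acid from monoglycerides and also degrades the endocannabinoid 2-arachidonoylglycerol, was the member that fell. Its 60-base probe (A_24_P226008) is shown because the call rests on this probe alone. Its ends lie 2711 bases apart at hg19 chr3:127411122-127413832 on the minus strand, so that the probe bridges a gap in the genome.
MGLL probe: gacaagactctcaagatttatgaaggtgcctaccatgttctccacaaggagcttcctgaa

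MGLL read 12.91, 12.59, 12.54 and 12.52 on DMSO, 12.16, 11.89, 12.23 and 12.50 at 28 µM, and 11.94, 11.97, 11.91 and 12.13 at 42 µM. All treated arrays at both doses were below all DMSO arrays, with 28 µM replicate 4 only just so. The higher dose gave a change of -0.66 (SE 0.14, 0.635-fold, adjusted p = 0.0252 from limma), close to the fold change limit. At 28 µM it was -0.45 (SE 0.14, adjusted p = 0.252), or -0.55 without replicate 4 (adjusted p = 0.0521). Of the 13 member probes, 4 lay above DMSO on every 42 µM array and MGLL lay below, while 5.82% and 6.49% of all probes tested did so. At 28 µM 1 member probe, that of MGLL, lay wholly below DMSO and 0 lay above, beside 2.69% of all probes in each direction.

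**Figure D2:**
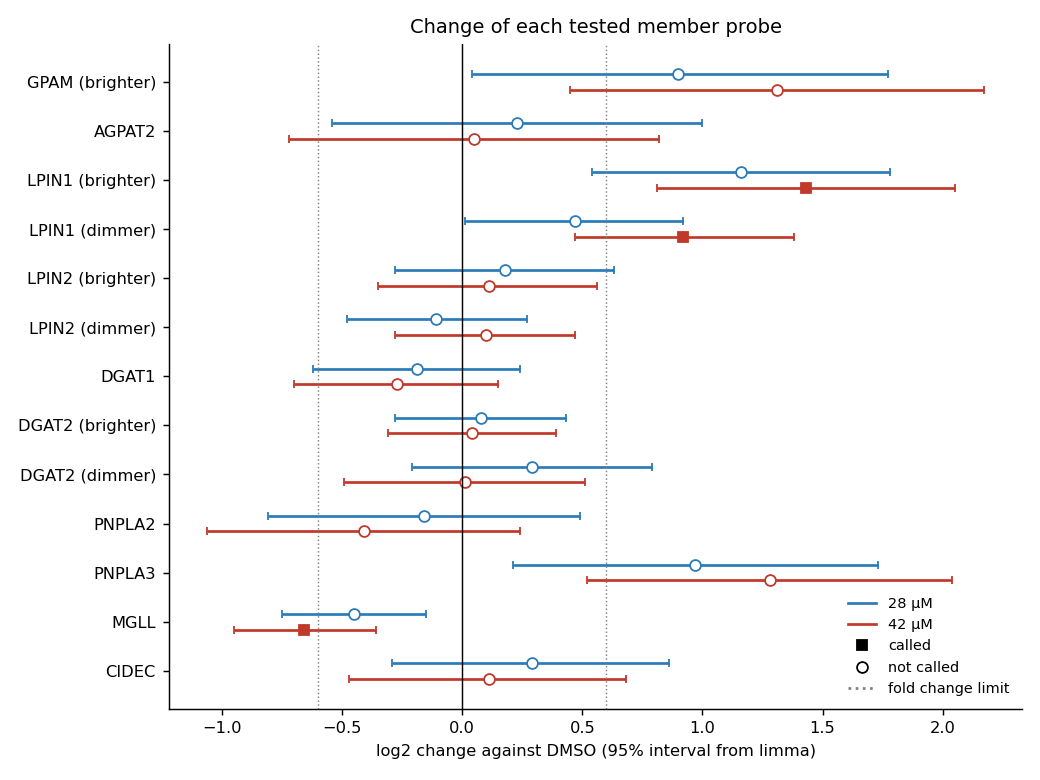
log2 change against DMSO (horizontal axis) of the 13 tested member probes at 28 µM (blue) and 42 µM (red), with 95% intervals from limma, filled squares for called changes and dotted lines at the fold change limit. Only both LPIN1 probes and MGLL at 42 µM are filled, while the intervals of PNPLA3 and GPAM lie right of 0 at both doses but their adjusted p-values were above 0.05.

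PNPLA3 and GPAM had changes between those of the LPIN1 probes with larger standard errors, and neither was called. PNPLA3 (A_23_P17914, hg19 chr22:44342759-44342818, plus strand) read 8.94, 8.74, 8.60 and 8.37 on DMSO, 10.15, 10.27, 9.84 and 8.28 at 28 µM, and 10.17, 10.22, 9.97 and 9.41 at 42 µM. The 28 µM arrays were split, with replicates 1 to 3 near the 42 µM arrays and replicate 4 below all DMSO arrays. The higher dose differed from DMSO by 1.28 (SE 0.35, 2.43-fold, adjusted p = 0.0709 from limma) and the lower dose by 0.97 (SE 0.35, adjusted p = 0.330). Without 28 µM replicate 4 the gene was called at both doses, with 1.42 (adjusted p = 0.00425) for the lower and 1.28 (adjusted p = 0.00212) for the higher. That array enters the 42 µM comparison only through the shared estimate of the spread.

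GPAM, the mitochondrial acyltransferase of the first step, was measured by its brighter probe (A_24_P227069, hg19 chr10:113909827-113909886, minus strand). It read 8.16, 8.88, 8.36 and 8.81 on DMSO, 10.42, 9.93, 9.43 and 8.05 at 28 µM, and 10.49, 9.77, 9.66 and 9.52 at 42 µM. As for PNPLA3, the 42 µM arrays were all above DMSO and 28 µM replicate 4 was below it. The higher dose differed by 1.31 (SE 0.40, 2.48-fold, adjusted p = 0.104 from limma) and the lower by 0.90 (SE 0.40, adjusted p = 0.430). Without 28 µM replicate 4 GPAM was called at both doses, with 1.31 (adjusted p = 0.0104) for the higher and 1.37 (adjusted p = 0.0222) for the lower. The dimmer GPAM probe ranged from 5.53 to 6.26 over all arrays, at background, and gives no second reading of the gene.

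With 28 µM replicate 4 left out, 4 members were called at 42 µM beside 4.48% of all genes, and 3 at 28 µM (GPAM, LPIN1 and PNPLA3) beside 2.68%. The background thus rose with the members. Because the array was chosen for its likeness to DMSO, these calls are a description. Without 28 µM replicate 1 instead, LPIN1 and MGLL were the members called at 42 µM and 0 were at 28 µM, where LPIN1 (brighter probe) differed by 1.10, PNPLA3 by 0.80, GPAM by 0.58 and MGLL by -0.44.

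**Figure D3:**
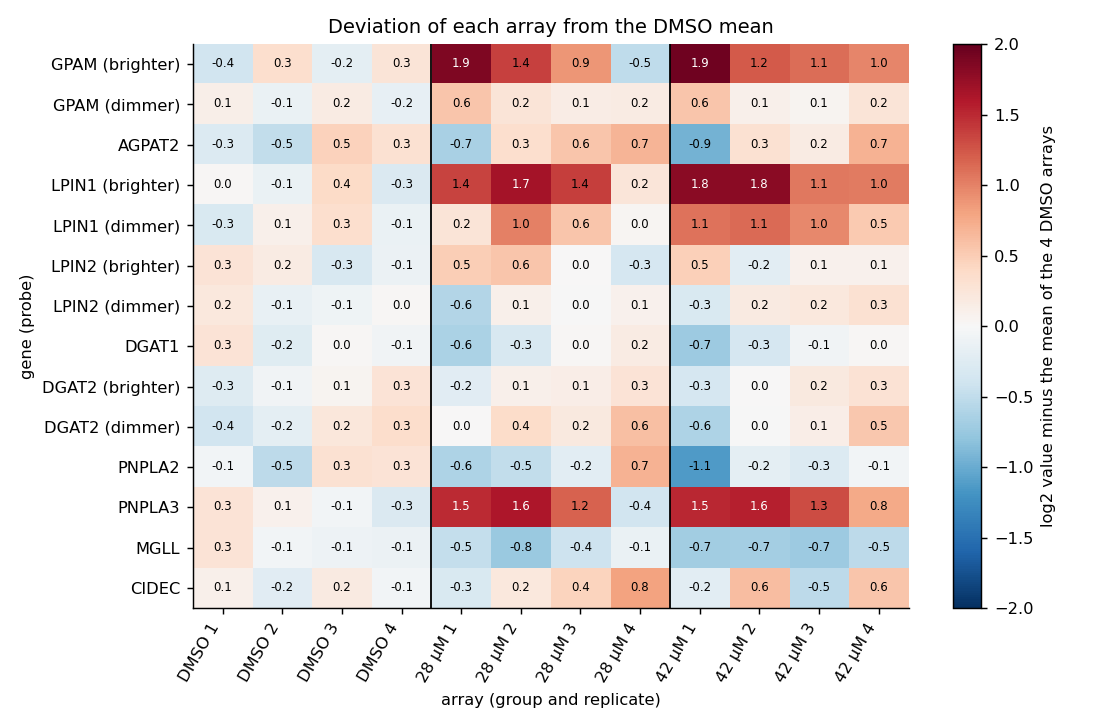
Deviation of each array (columns, grouped by treatment) from the mean of the 4 DMSO arrays for each of the 14 member probes (rows), as a log2 difference written in each cell and shown by colour from blue (lower) to red (higher). PNPLA3 and the brighter LPIN1 and GPAM probes are red on 3 of the 28 µM arrays and on all 4 of the 42 µM arrays. For these probes 28 µM replicate 4 resembles the DMSO columns. The dimmer LPIN1 probe is paler, at 0.25 on 28 µM replicate 1 against 0.33 on DMSO replicate 3.

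Because slides held arrays of several groups, the changes were also read within slides. Slides 2, 4 and 5 each held 1 DMSO and 1 array of 42 µM. The brighter LPIN1 probe was higher at 42 µM by 2.09, 1.42 and 1.19 within these slides, and the dimmer one by 1.20, 0.80 and 0.86. MGLL differed by -0.58, -0.57 and -0.68, PNPLA3 by 1.80, 1.62 and 1.23, and GPAM by 1.68, 1.41 and 0.78. No 42 µM array overlapped with DMSO on these probes. The signs within slides were therefore fixed in advance, and only the sizes are informative. With the slide as a block in limma the sizes were 1.45 (adjusted p = 0.0821) and 0.87 (0.134) for LPIN1 and -0.59 (0.0984) for MGLL, and no member was called, but with this block only 1 probe of all those tested was. With the slide as a random block limma called 1119 probes in all, and LPIN1 kept the calls of both probes, at 1.43 (adjusted p = 0.0148) and 0.91 (0.0270), as did MGLL at -0.64 (0.0168). For 28 µM, slides 1, 2 and 4 allowed the comparison, and slide 4 holds replicate 4. There LPIN1 (brighter probe) differed by -0.15, PNPLA3 by -0.31 and GPAM by -0.31, against 1.36 and 1.64, 0.90 and 1.77, and 1.27 and 1.62 on slides 1 and 2.

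The number of probes called in all at 42 µM, 888 of 33476, moved when single arrays were left out. It was 0 without DMSO replicate 2 or 42 µM replicate 2, and 259, 318 and 500 without DMSO replicate 1, DMSO replicate 4 and 42 µM replicate 1. LPIN1 lost the call of its brighter probe without DMSO replicate 1, 2 or 4 or 42 µM replicate 1 or 2, with changes of 1.30 to 1.43 and adjusted p-values of 0.0563 to 0.0845. The dimmer LPIN1 probe lost its call without these arrays, without 28 µM replicate 3 and without 42 µM replicate 3, with changes of 0.82 to 0.96 and adjusted p-values of 0.0504 to 0.127. MGLL lost its call without any one of the DMSO arrays or without 42 µM replicate 1, 2 or 3, with changes of -0.69 to -0.57 and adjusted p-values of 0.0513 to 0.0898. The 42 µM and DMSO arrays of these probes did not overlap, so leaving out 1 array could not turn the direction.

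**Figure D4:**
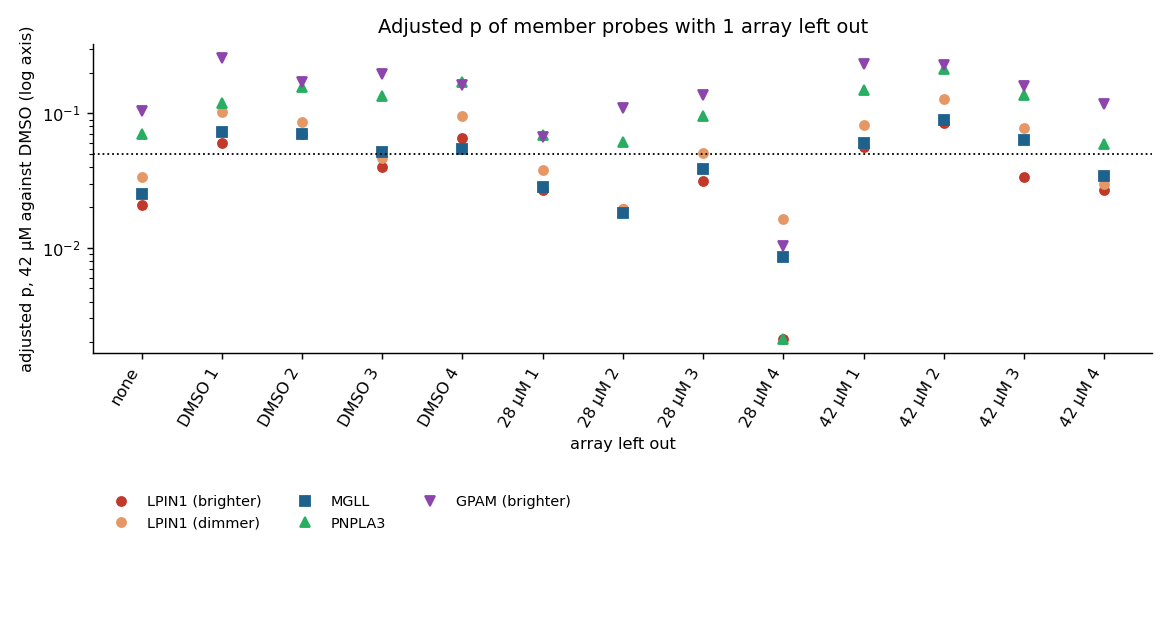
Adjusted p from limma at 42 µM against DMSO (vertical axis, log scale) for 5 member probes when no array or the array named on the horizontal axis was left out, with a dotted line at 0.05. Without 28 µM replicate 4 all 5 probes lie below the line, and without DMSO replicate 1, 2 or 4 or 42 µM replicate 1 or 2 none does.

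The remaining members showed no called change at either dose. AGPAT2, the acyltransferase of the next step, differed by 0.05 at 42 µM (95% interval -0.72 to 0.82, adjusted p = 0.971 from limma) and by 0.23 at 28 µM (-0.54 to 1.0), or by 0.08 without replicate 4. Its 42 µM arrays read 8.27, 9.53, 9.39 and 9.91 (SD 0.70), the widest spread of any member at this dose. LPIN2, the sister enzyme of lipin 1, differed at 42 µM by 0.10 on its dimmer probe (-0.28 to 0.47) and by 0.11 on the brighter (-0.35 to 0.56). At 28 µM these probes differed by -0.11 and 0.18, or by -0.17 and 0.35 without replicate 4. At 42 µM intervals of this width leave out a change of the size seen for the brighter LPIN1 probe.

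The acyltransferases of the last step were not called either. DGAT1 differed by -0.27 at 42 µM (-0.70 to 0.15, adjusted p = 0.592 from limma) and by -0.19 at 28 µM (-0.62 to 0.24), or by -0.31 without replicate 4. DGAT2, the isoform most tied to newly made fatty acids, read 8.68, 9.02, 9.19 and 9.30 on its brighter probe at 42 µM against 8.75, 8.94, 9.07 and 9.28 on DMSO. That is a difference of 0.04 (-0.31 to 0.39), and its dimmer probe gave 0.01 (-0.49 to 0.51). At 28 µM the dimmer DGAT2 probe differed by 0.29 and the brighter by 0.08, or by 0.19 and 0.01 without replicate 4. The DGAT2 probes had a Pearson r of 0.912 with each other over the 12 arrays, whereas those of LPIN2 had one of -0.406.

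PNPLA2, the first lipase of the droplet, read 8.02, 7.54, 8.39 and 8.35 on DMSO and 6.95, 7.88, 7.81 and 8.02 at 42 µM. The groups overlapped, and the difference of -0.41 had an interval of -1.06 to 0.24 (adjusted p = 0.596 from limma). At 28 µM it was -0.16 (-0.81 to 0.49), or -0.44 without replicate 4. CIDEC, the droplet fusion protein, differed by 0.11 at 42 µM (-0.47 to 0.68) and by 0.29 at 28 µM (-0.29 to 0.86), or by 0.12 without replicate 4. A fold of the size of MGLL's at 42 µM lies inside the intervals of PNPLA2 at both doses, and inside those of DGAT1 and AGPAT2 at 42 µM.

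Some arrays stood at the ends of the range for several of these uncalled genes. The 28 µM and 42 µM arrays numbered 1, both on slide 2, were the lowest 2 of the 12 for PNPLA2, DGAT1, AGPAT2 and the dimmer LPIN2 probe, and the highest 2 for both GPAM probes. The DMSO array of that slide was not low for them. CIDEC, PNPLA2 and the dimmer DGAT2 probe were highest on 28 µM replicate 4, at 8.49, 8.77 and 8.73. The part of these arrays in the uncalled differences was not tested.

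The other genes of the pathway were taken from a list of 41 acyltransferases, acyl-CoA synthetases, droplet proteins and lipases, of which 39 were tested on 52 probes. At 42 µM 2 of the 39 were higher, G0S2 and ACSL1, and 0 were lower, beside 3.33% of all genes called. G0S2 passed the filter on low values only through the treated groups, where it was high. Such a choice favours a difference, so its calls and adjusted p-values are given as a description and support nothing. PLIN1, detected on no DMSO array, also passed through a treated group and differed by 0.11 at 42 µM. The list's median log2 change was 0.08 at 42 µM and 0.13 at 28 µM, where 0 were called. At an unadjusted p below 0.05 and the fold change limit, 3 of its probes passed at 28 µM, beside 2.37% of all probes. They were those of ACSL1 and G0S2, both higher, and of the lipase CES1, which was lower. CES1 differed by -0.67 at 28 µM (adjusted p = 0.195 from limma) and by -0.33 at 42 µM (adjusted p = 0.384).

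G0S2 encodes an inhibitor of PNPLA2. Its probe (hg19 chr1:209849597-209849656) was well above background on no DMSO array, on 3 of 4 arrays at 28 µM and on all 4 at 42 µM. It read 5.76, 6.02, 5.72 and 5.84 on DMSO, 6.87, 7.08, 6.53 and 5.88 at 28 µM, and 7.48, 7.28, 6.76 and 6.78 at 42 µM. The level on DMSO is at background. Set against a floor there, the mean of the 42 µM arrays was 2.30-fold higher and that of the 28 µM arrays 1.64-fold. The measured log2 difference was 1.24 at 42 µM (95% interval 0.73 to 1.74, adjusted p = 0.0171 from limma). At 28 µM it was 0.75 (0.24 to 1.26, adjusted p = 0.258). The floor is the lowest signal detected for any probe on each DMSO array, or the probe's own where that was higher. It is no strict limit for this probe, and the intervals reach smaller changes. Without 28 µM replicate 4 the 28 µM arrays differed by 0.99 and G0S2 was called there too, again only as a description. The call at 42 µM was lost without DMSO replicate 1, 2 or 4 or 42 µM replicate 2 (adjusted p = 0.0503 to 0.0725) and with the slide as a block (0.0697).

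ACSL1, which activates long-chain fatty acids to acyl-CoA, read 9.33, 9.40, 9.80 and 9.61 on DMSO, 9.94, 10.79, 10.39 and 10.13 at 28 µM, and 10.17, 11.16, 10.37 and 10.21 at 42 µM. Treated arrays at both doses were all above DMSO, including 28 µM replicate 4. Of the list's 52 probes, 6 lay wholly above DMSO and 3 below at 42 µM, beside 5.82% and 6.49% of all probes. At 28 µM 1 lay above and 3 below, beside 2.69% of all probes in each direction. The higher dose gave a change of 0.95 (SE 0.23, 1.93-fold, adjusted p = 0.0414 from limma), and the lower differed by 0.78 (SE 0.23, adjusted p = 0.232). ACSL1 was no longer called when any DMSO array was left out, nor without 28 µM replicate 3 or 42 µM replicate 1, 2 or 3, with changes of 0.72 to 1.05, nor with the slide as a block (0.90, adjusted p = 0.109). With Agilent's processed signal it was not called either, at 0.93 when scaled to the 75th percentile (adjusted p = 0.0858) and 0.98 when quantile normalized (adjusted p = 0.0932), but it was with the slide as a random block (adjusted p = 0.0269). Without replicate 4 the 28 µM arrays differed by 0.84 (adjusted p = 0.114).

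Of the droplet coat proteins, PLIN2, the main one of hepatocytes, differed by 0.74 at 42 µM without being called (adjusted p = 0.346 from limma), and its groups overlapped. The glycerol-3-phosphate acyltransferase GPAT3, another first-step enzyme, differed by 0.38 (adjusted p = 0.285). FITM2, which acts in droplet formation, had probes at 0.08 and -0.46 (adjusted p = 0.896 and 0.0561), so that they differ in sign. MTTP, which loads triglyceride onto lipoproteins, differed by -0.16 (adjusted p = 0.754).

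**Figure D5:**
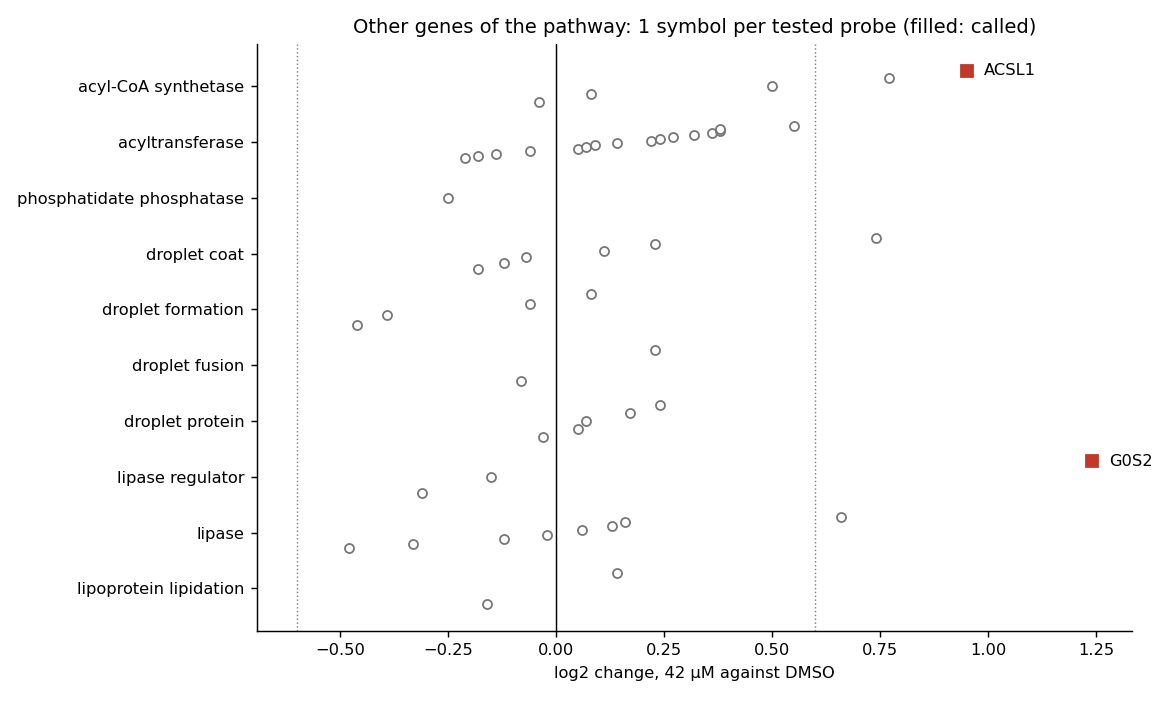
log2 change at 42 µM against DMSO (horizontal axis) of each tested probe of the other pathway genes, by role (rows), with filled red squares for called probes, open circles for the others and dotted lines at the fold change limit. ACSL1 and G0S2 are the called genes, and the value plotted for G0S2 is set against DMSO arrays at background.

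The genes whose values followed the brighter LPIN1 probe most closely over the 12 arrays were a transcript without a gene name (Pearson r = 0.985), SPPL3 (0.980), MAFG (0.980), SESN2 (0.979) and CCNB1IP1 (0.979). SESN2 encodes a stress-induced sestrin and MAFG a small Maf transcription factor. Their changes at 42 µM ran from 0.47 for SPPL3 to 1.82 for SESN2. These arrays share slides and treatment groups, so the r describes a pattern over the groups and carries no test.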

How the data were processed

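RNA of HuH-7 cells was labelled with Cy3 and hybridised to 12 Agilent 4x44K one-colour arrays, 4 per group. For each array the authors deposited scanner output with a mean intensity and a median background intensity per spot from Agilent Feature Extraction (version 10.7.3.1 in the submitters' processing notes). Their deposited log2 table, made with Edwards background correction and quantile normalization, served as an alternative here. The log2 values computed here correlated with those values at r of at least 0.9991 on every array, up to a shift of the median of -0.0927 to -0.0853. Probe positions are those of hg19 in the scanner output. No hg19 annotation was used, so exons and UTRs are not stated. Promoters were matched by gene symbol to RefSeq windows of GRCh38.p14 and are used for sequence only.

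Control spots (1639) and outlier spots (79 to 119 per array) were dropped. Edwards correction, then quantile normalization, were run in limma 3.58.1 (R 4.3.3), followed by log2 and the mean over a probe's spots. Probes that missed the scanner's detection flag on 3 or 4 arrays of each group were dropped, which removed 7524 of 41000 probes and left 33476 probes of 24176 gene names. The share of spots well above background was 65.0% to 85.02% per array, and no gene spot was saturated. Names were updated through RefSeq accessions for 68.5% of probes. One limma model (lmFit, eBayes) covered all 12 arrays in 3 groups. Two-sided p-values were adjusted by the Benjamini-Hochberg method over all probes tested. A call needs an adjusted p under 0.05 and a log2 difference of 0.6 or more, the limit of the study's results, while its methods name 2-fold. Calls of genes are over probes, so that 1 called probe suffices. The procedure was tested on simulated data with independent noise and no slide or array effects, so that test does not cover such effects. The number of arrays limits the precision.

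The members and the lists were chosen with earlier results of these data known, so no set test was run and no p was adjusted over a list alone. Named are all members with every probe, the other pathway genes called at either dose, and the 5 genes most correlated with the member probe of smallest p at 42 µM. ACSL3, CES1, PLIN2, GPAT3, FITM2 and MTTP were added after their values were seen. Where no array of a group detected a probe, its level there is at background, and a floor that is no strict limit stands in for it. Same-numbered arrays were compared as possible pairs: of 12 pairs, 7 had a correlation of deviations above 0.1 (range -0.464 to 0.618). The highest was that of the 28 µM and 42 µM arrays numbered 1, which share slide 2, so number and slide cannot be told apart there. These values do not settle whether the numbers mark pairs. The main fit did not pair by them, and a replicate block was run as an alternative. Alternatives covered background correction, scaling, filters, slide and replicate blocks, the arrays in the fit, eBayes settings, array weights, the fold change limit and leaving out each array. Motifs and plots used Python 3.11.15, pandas 2.3.3, numpy 2.4.6 and matplotlib 3.10.9. The study's qPCR and protein data were not used here.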

Additional observations from a re-analysis of the deposited data

Results flagged for a closer look

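The dimmer LPIN2 probe (A_23_P208055) read 6.82 on 28 µM replicate 1, while replicates 2 to 4 of that dose lay between 7.40 and 7.51. The gap to its nearest neighbour was 0.838 of the group's range, above Dixon's 95% critical value for 4 samples. It was the only one of 42 groups of values tested to pass, and chance flags about 1 in 20. LPIN2 was not called with or without this array.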

How the results depend on the processing

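Of the 2 members called at 42 µM, beside 888 probes called in all, 1 (LPIN1) was called with Agilent's processed signal, scaled to the 75th percentile or quantile normalized, where MGLL had adjusted p-values of 0.0554 and 0.114 and 614 and 470 probes were called in all. With a log2 limit of 1 it was also 1 (LPIN1, of 365 probes), with the slide as a fixed block 0, and with only the 2 groups compared in the fit 4 (GPAM, LPIN1, MGLL and PNPLA3, of 1192 probes). Leaving out each array in turn gave 0 to 4 members at 42 µM and 0 to 3 at 28 µM, and the numbers of 4 and 3 came without 28 µM replicate 4. The probes called in all then ran from 0 to 1224 at 42 µM and reached 717 at 28 µM, both highest without that array. For the other pathway genes at 42 µM, 1 was called with the quantile-normalized processed signal (G0S2), G0S2 and AADAC (lower) with the scaled one, 0 with the slide as a fixed block and 1 with a limit of 1 (G0S2). Leaving out each array gave 0 to 3 of them at 42 µM and 0 to 2 at 28 µM. The latter were G0S2 and ACSL3, called without 28 µM replicate 4. For ACSL3 the probe A_24_P248606 was called (0.89, adjusted p = 0.0338) and A_24_P37319 was not (1.17, adjusted p = 0.180). With all arrays these ACSL3 probes differed by 0.56 and 0.85 at 28 µM (adjusted p = 0.480 and 0.485 from limma). Between the doses 0 were called under every alternative run. With the slide as a random block PNPLA3 was called at 42 µM (adjusted p = 0.0475), among 1119 probes, and with array weights, among 1269, PNPLA3 (0.0154) and GPAM (0.0356) were, while MGLL at -0.59 fell short of the fold change limit. With percentile scaling in place of quantile normalization the dimmer LPIN1 probe had an adjusted p of 0.0552. The replicate number as a replicate block called 3 members at 42 µM (LPIN1, MGLL and PNPLA3, the last with an adjusted p of 0.0113, of 1369 probes) and 0 at 28 µM. It changed no other call of a member. The best match in another group had the same number for 5 of 12 arrays and lay on the same slide for 7. The median change over the members moved between -0.04 and 0.22 at 42 µM and between 0.12 and 0.39 at 28 µM when an array was left out, within 1 SD (0.221) of the per-array medians. No call turned its direction. For LPIN1 and MGLL at 42 µM, whose groups did not overlap, leaving out an array could not have done so. Leaving out an array or adding a block leaves fewer residual degrees of freedom, and the cause of the other changes was not tested. Probes near background, such as the dimmer LPIN1 and GPAM probes and G0S2, understate or hide changes more than bright ones.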
